A study of Mus musculus with 4 samples.

Results

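The regions described here are stretches of mouse genome in which Ring1b chromatin immunoprecipitation reads that fitted exactly 2 places were dense. They were chosen from those reads themselves. A 1000-bp window, placed every 500 bp, was taken when its Ring1b reads had a Poisson probability of at most 1e-09 against the larger of the genome mean and the local 1-Mb mean and stood at least 5 times above that background, and overlapping windows were joined. This gave 943 Ring1b regions out of 6814 called in the same way in all 4 libraries of the series, with 471 for REST, 2579 for MCAF1 and 2821 for H4K20me3. The number of reads, the fold over background and the width of these regions are therefore a description of how they were chosen. Reads that fitted a single place took no part in the choice.

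The study used V6.5 cells, mouse embryonic stem cells of C57BL/6-129 background, and sequenced DNA precipitated with antibodies to Ring1b, REST, MCAF1 and H4K20me3. Each antibody had 1 library, no cells were treated, and no library of unprecipitated DNA was used here. Cells stood 1 passage off embryonic fibroblast feeders for REST and 2 passages for the other libraries. Chromatin was sheared to a mean of 500 bp and amplified for 18 cycles, and gel slices of 150 to 300 bp were taken for Ring1b and MCAF1 and of 150 to 350 bp for REST and H4K20me3. With 1 library per antibody no test between conditions was possible, and the intervals below cover counting error only. Precipitated DNA gives no RNA level, so the labelled cell type was not checked against marker genes.

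Ring1b is a ubiquitin ligase of Polycomb repressive complex 1, which mono-ubiquitinates histone H2A at silenced developmental genes. H4K20me3 is a histone mark typical of compact heterochromatin and repeats, while MCAF1, or ATF7IP, binds SETDB1, an enzyme that methylates H3K9. REST is a zinc finger repressor that binds a long DNA motif and recruits corepressors. Sequence present in a pair of near-identical copies, such as a recent segmental duplication, a retrotransposed gene copy or a piece of mitochondrial DNA inserted into a nuclear chromosome, is commonly left out of occupancy maps, because a short read cannot be assigned to one copy.

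Reads with 2 locations made up 5.81% of the aligned Ring1b reads (203166 reads), 6.43% in REST, 3.32% in MCAF1 and 3.57% in H4K20me3. Each read was deposited at both of its places, and after 1 entry was kept per position and strand 377950 Ring1b entries remained, against 449188 for REST, 738916 for MCAF1 and 561046 for H4K20me3. Windows with at least 1 such entry in any library, 1771913 in number, formed the sequence in which regions could be called, and the average of these held 0.422 Ring1b reads. An average window therefore needed 9 Ring1b reads, or 21.3-fold enrichment, for a call, and 10 REST, 12 MCAF1 or 11 H4K20me3 reads. Where the local mean was higher, more reads were needed, so a region not called in a library was not one without reads. Ring1b and REST reads were aligned with a seed of 26 bases and MCAF1 and H4K20me3 reads with one of 36 bases, so the sequence that counts as duplicated differed between the libraries.

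The 943 Ring1b regions covered 1529500 bp and held 9.82% of the distinct nuclear Ring1b entries with 2 locations. They were 1000 to 10000 bp wide with a median of 1500 bp, and 31 were wider than 3 kb. Their highest window held 9 to 589 Ring1b reads (median 17), which gave folds of 5.32 to 230 (median 26.1, quartiles 20.6 and 44.0), and 45 regions reached at least 100-fold. Reads came about equally from both strands, with a median of 50% on the plus strand and quartiles of 42.9% and 56.3%. At the edge of the choice, a window on the Y chromosome at 1292001–1293000 of the mm8 assembly, to which all coordinates refer, was just inside with 12 reads, 11.8-fold and a Poisson probability of 9.58e-10. Just outside was a window of chromosome 13 at 40739501–40740500 with 10 reads, 16.6-fold and 1.01e-09.

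The Ring1b regions fell into 3 large groups by what else was called on them. No other library was called at 273 of them (28.95%), all 3 others were called at 270 (28.6%), and MCAF1 and H4K20me3 without REST were called at 246 (26.1%). H4K20me3 alone accompanied Ring1b at 69 regions, MCAF1 alone at 33, REST alone at 27, REST with MCAF1 at 19 and REST with H4K20me3 at 6. In all, 591 Ring1b regions overlapped an H4K20me3 region (62.7%), 568 an MCAF1 region (60.2%) and 322 a REST region (34.1%). Among all windows with reads of 2 locations, 0.334% were called for H4K20me3, 0.291% for MCAF1, 0.0587% for REST and 0.119% for Ring1b. Seen from the other side, 316 of 471 REST regions overlapped a Ring1b region (67.1%), 556 of 2579 MCAF1 regions (21.6%) and 583 of 2821 H4K20me3 regions (20.7%). The Ring1b regions were fewer than the MCAF1 or H4K20me3 regions but more than the REST regions, so these shares do not have the same ceiling. REST also had the 26-base seed of Ring1b, while MCAF1 and H4K20me3 had 36 bases and more entries. What an excess that all the libraries share contributed to these overlaps was not tested.

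**Figure D1:**
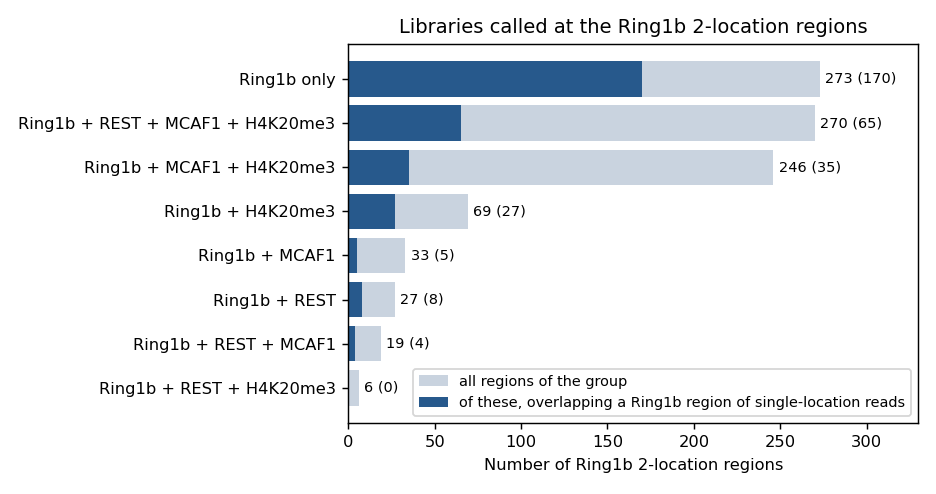
Number of Ring1b regions in duplicated sequence by the other libraries called on them, with the part of each bar that also overlaps a region called from single-location Ring1b reads. The 273 regions with no other call contain 170 of the 314 regions that carry such a single-location call.

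Where no other library was called, Ring1b stood well above the other 3 libraries, and where all 4 were called it stood close to them. Ring1b reads in the highest window were set against the pooled reads of the other libraries, scaled to the Ring1b total. MCAF1 and H4K20me3 entered this pool with a seed of 36 bases against 26 for Ring1b, and what this contributed was not tested. Since the groups were formed from these same reads, the order of the ratio between groups follows from the grouping and its values are a description. Over the 254 regions without another call for which this ratio could be formed, its median was 11.1 (quartiles 4.11 and 22.1), and 217 lay at 3 or more. The other 19 had no REST, MCAF1 or H4K20me3 read in that window. The median was 2.50 beside H4K20me3 alone, 1.43 beside MCAF1 and H4K20me3, and 1.26 where all 4 were called, where 164 of 270 regions lay at 1.5 or less. Over all Ring1b regions 325 lay at 3 or more, 328 at 1.5 or less and 138 at 1 or less.

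The group without another call was not free of other reads. Its median fold was 25.7 for Ring1b, 1.98 for REST, 1.79 for MCAF1 and 3.66 for H4K20me3, and in 143 of the 273 at least 1 other library reached 5-fold or more in the same window, which in sparse windows takes only a few reads. An extreme case was chromosome 17 at 6365501–6366500, chosen here after its values were seen, with 22 Ring1b reads beside 15 REST, 66 MCAF1 and 53 H4K20me3 reads. The local background of that megabase kept the other libraries from a call there.

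**Figure D2:**
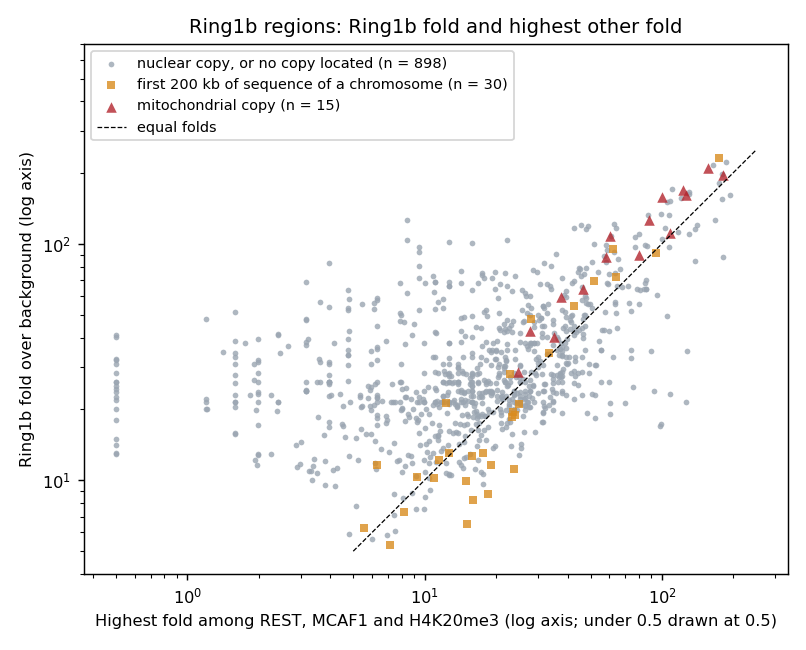
Ring1b fold over background against the highest fold among REST, MCAF1 and H4K20me3 in the same window, on log axes, for each of the 943 Ring1b regions, with the 15 regions that have a mitochondrial copy and the 30 in the first 200 kb of sequence marked. Of the 45 regions at 100-fold or more, 35 were called in all 4 libraries and 4 in Ring1b alone, and points far to the left of the line of equal folds are regions with few reads of the other libraries.

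Single-location Ring1b reads, which the choice did not use, were dense in and around the Ring1b regions without another call. Of these 273, 170 (62.3%) overlapped a region called from single-location Ring1b reads, where 0.625% of the windows with such reads were called. Over all 943 regions the number was 314 (33.3%, exact binomial interval 30.3% to 36.4%). It was 27 of 69 with H4K20me3 alone (39.1%), 65 of 270 with all 4 libraries (24.1%) and 35 of 246 with MCAF1 and H4K20me3 (14.2%). Of the H4K20me3 regions called from reads with 2 locations but without a Ring1b call, 40 of 2238 (1.79%) overlapped a single-location Ring1b region. Of the same kind of region, 16 of 2023 did so for MCAF1 (0.791%) and 7 of 155 for REST (4.52%). A single-location read fits only that place of the mm8 assembly, up to sequencing and alignment error, so within the assembly these counts bear on that copy. Reads from copies that the assembly lacks could also be listed there, and their share was not tested.

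The density of single-location Ring1b reads was measured in the 5 kb on each side of a region and given as a ratio to the library's mean. Beside the regions without another call the pooled reads lay at 18.3 times the mean (exact Poisson interval 18.1 to 18.4), and the median region lay at 3.49 times. At 139 of the 266 with a flank that could be measured the ratio was 3 or more (52.3%), while 2.85% of all 10-kb blocks of the genome reached that density. Over all Ring1b regions 207 of 920 did (22.5%), and beside the regions of other libraries without Ring1b 2.67% did for REST, 2.98% for MCAF1 and 3.67% for H4K20me3. The quartiles of 0.915 and 30.9 in the group without another call show a wide spread between regions with an ordinary surrounding and regions within dense Ring1b signal. In the same flanks the pooled density of the other libraries was 1.78 times the mean for REST, 1.47 for MCAF1 and 1.98 for H4K20me3. The median H4K20me3 flank was 1.74 times. It was 0.897 beside regions with H4K20me3 alone, 1.03 with MCAF1 and H4K20me3 and 0.992 with all 4 libraries. The pooled H4K20me3 values there were 1.23, 1.49 and 2.48. A group without an H4K20me3 call was therefore not one poor in single-location H4K20me3 reads.

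**Figure D3:**
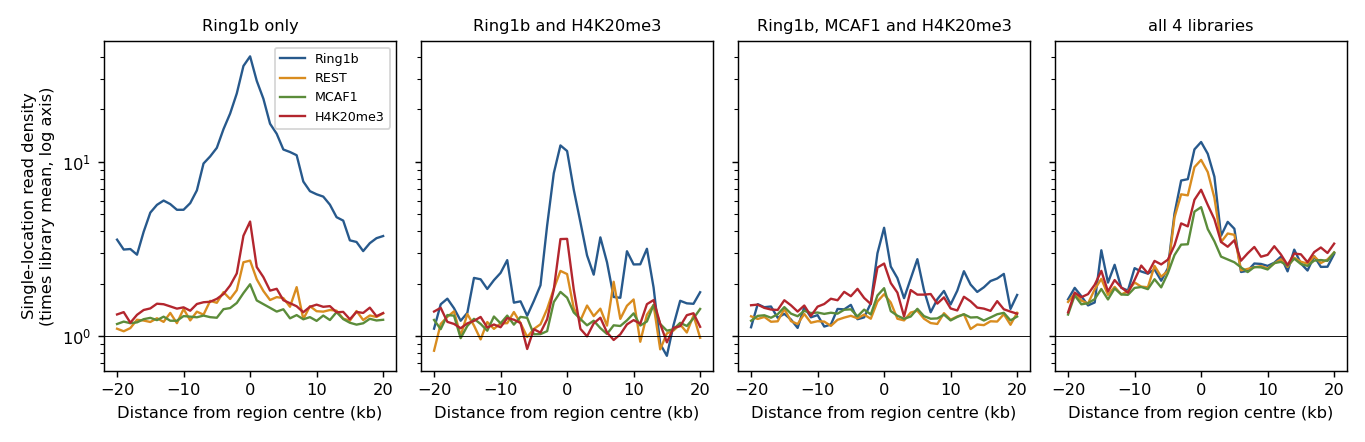
Mean density of single-location reads of each library, in multiples of its own mean on a log axis, against the distance in kb from the centre of the Ring1b regions, in 4 groups by the libraries called. Around regions without another call Ring1b falls from 40.3 times at the centre to 12.0 and 11.8 times at 5 kb and 3.58 and 3.76 times at 20 kb on either side.

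Many of the regions without another call lay inside the long domains that single-location Ring1b reads form. Regions called from such reads were joined when within 10 kb, which gave 429 domains longer than 10 kb. Of the Ring1b regions called from reads with 2 locations, 130 (13.8%) lay in 82 of these domains. All 429 domains together held 0.425% of the windows in which a region could be called. Of the regions without another call 91 of 273 were in a domain (33.3%), against 6 of 69 with H4K20me3, 10 of 246 with MCAF1 and H4K20me3 and 21 of 270 with all 4 libraries. In the domain of chromosome 6 at 52081501–52204500 the regions were 52099501–52101000, 52135501–52136500 and 52161501–52162500, with 18, 13 and 13 Ring1b reads in their highest window and flanks of 60.1, 54.8 and 74.4 times the mean. All 3 had no other call, and each had at least 1 other library with no read. The domain of chromosome 2 at 74456501–74564500 held a pair of regions with 13 reads each, and the neighbouring domains of chromosome 11 at 96085501–96121500 and 96133001–96183000 held a pair each with 12 to 19 reads. In none of these 9 regions was a second copy located, and in each the single-location Ring1b reads of the region itself, 71 to 200 in number, were more than the reads with 2 locations. Outside the domains, the 175 regions without another call that had a measurable flank still lay at 6.69 times the mean together, with a median of 1.28.

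The 3 regions of highest flank density differed in their own reads. Chromosome 13 at 40741001–40742000 was called with 12 Ring1b reads, no read of any other library and 214 single-location Ring1b reads, and its flanks lay at 95.1 times the mean (90.2 to 100.3). Chromosome 17 at 85529501–85531000 had 22 Ring1b reads, 2 REST reads and none of the others, with flanks at 91.2 times. The highest flank of all belonged to chromosome 17 at 39450501–39452500, at 174 times in Ring1b. It held 264 Ring1b, 213 REST and 236 MCAF1 reads with H4K20me3 at 87.7-fold, and its flanks in the other libraries lay at 134 times for REST, 32.9 for MCAF1 and 52.8 for H4K20me3. Its neighbour at 39453001–39457500, described below, lay within 5 kb, so the flanks of both covered partly the same stretch. The first 2 places thus had dense single-location Ring1b reads, with sparse 2-location reads of the other libraries, whose flanks there are not given. The last had dense reads of every library, in the region and in its flanks.

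The strongest region without another call had its second copy in the same group. Chromosome 12 at 73964001–73966000 held 72 Ring1b reads, 4 REST, 7 MCAF1 and 4 H4K20me3 reads in its highest window, and Ring1b stood at 126-fold (98.9 to 159). Its copy on chromosome 17 at 85595001–85597000 held 86 Ring1b reads and the same numbers of the others, at 103-fold (82.7 to 128). Flanking single-location Ring1b reads lay at 21.96 times the mean on chromosome 12 (19.6 to 24.5) and at 62.0 times on chromosome 17 (58.1 to 66.2). The next by fold, chromosome 12 at 119292501–119295000, had 68 Ring1b reads beside 1 REST, 7 MCAF1 and 8 H4K20me3 reads, 101-fold enrichment and flanks at 24.2 times. All 3 regions also held 232 or more single-location Ring1b reads.

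The widest region of this group lay on chromosome 2 at 116242001–116249000. It spanned 7000 bp with at most 42 Ring1b reads in a window, 22.1-fold, and flanks at 9.09 times the mean. The domain around it, 116240501–116254000, held 4 Ring1b regions without another call.

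Ring1b regions with H4K20me3 as the only other call had a mixed surrounding. Their median folds were 27.96 for Ring1b and 17.4 for H4K20me3, and 11 of 67 had Ring1b flanks of 3 or more (16.4%). Pooled over the group, the flanks lay at 3.42 times the mean, but at 1.05 times (0.973 to 1.13) without the 10 regions with most flanking reads, and the median was 0.961. Of the pairs with H4K20me3 as the only other call at both copies, only 2 had Ring1b flanks of 3 or more at both. In the first, chromosome 13 at 78661001–78662500 had 42 Ring1b, 2 REST, 2 MCAF1 and 11 H4K20me3 reads, and its copy on chromosome 7 at 70232501–70234500 had 44, 2, 2 and 13. Their flanks lay at 32.3 and 29.9 times the mean (29.2 to 35.8 and 26.9 to 33.3), and the reads of all 4 libraries were nearly alike at both places, since the copies share them. In the second, on chromosome 11, 63737001–63738500 and 64252001–64253500 had 11 Ring1b and 11 H4K20me3 reads each, with flanks at 18.5 and 4.77 times. Other such pairs with measurable flanks reached 3 at the denser copy alone or at neither copy. Chromosome 2 at 17945501–17946500 and its copy on chromosome 3 lay at 23.4 and 0.412 times. On chromosome 8, 113980501–113982000 and its copy lay at 0.888 and 1.03 times.

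Where MCAF1 and H4K20me3 were called beside Ring1b, single-location Ring1b reads around most regions were below 3 times the library mean. The median folds of the 246 regions were 25.7 for Ring1b, 16.1 for MCAF1, 23.7 for H4K20me3 and 9.01 for REST. Ring1b flanks had a median of 0.789 and a pooled value of 1.55 times (1.5005 to 1.597), beside 1.49 for H4K20me3, and 22 of 240 reached 3 (9.17%). The highest by Ring1b fold was chromosome 19 at 37298001–37300500, with 74 Ring1b, 3 REST, 13 MCAF1 and 31 H4K20me3 reads, 119-fold Ring1b enrichment and flanks at 1.10 times. Chromosome 11 at 3897501–3899500 had 84, 4, 16 and 36 reads, and chromosome 7 at 13522501–13524500 had 38, 7, 15 and 35. In these 3 the Ring1b count was the largest of the 4 although the Ring1b library was the smallest.

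Many regions with MCAF1 and H4K20me3 lay in clusters of copies. The megabase from 96000001 on chromosome 3 held the most Ring1b regions, 16, of which 16 were called in MCAF1, 16 in H4K20me3 and 5 in REST, and 15 had their copy on the same chromosome. The regions at 96434501–96437500 and 96467501–96470500, inverted copies 32.9 to 33.1 kb apart, both had 67 Ring1b reads beside 8 and 9 REST, 48 and 48 MCAF1 and 34 and 33 H4K20me3 reads. Ring1b flanks over the megabase had a median of 0.749. The next densest, from 6000001 on chromosome 17, held 13 regions, of which 11 were called in H4K20me3, 9 in REST and 8 in MCAF1. All 13 had a copy on the same chromosome, and the median flank was 0.458. Since each read stands at both places, most regions of such clusters repeat the evidence of another.

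REST was called beside Ring1b without both others in the 3 small groups of 27, 19 and 6 regions. The 27 regions with REST alone had median folds of 33.2 for Ring1b, 24.8 for REST, 2.93 for MCAF1 and 1.58 for H4K20me3. The highest was on the X chromosome at 135793001–135795000, with 35 Ring1b, 16 REST, 0 MCAF1 and 1 H4K20me3 reads. Its flanks lay at 0.565 times the mean (0.227 to 1.16), and the X region held 1 single-location Ring1b read. Chromosome 16 at 60998001–60999500 followed with 32, 10, 8 and 5 reads. Ring1b flanks of 3 or more were found at 3 of 27 regions with REST alone. The group with REST and MCAF1 had its copies on the mitochondrial genome at 4 of 19 regions, among them chromosome 2 at 69155501–69157500 with 63 Ring1b, 31 REST, 31 MCAF1 and 3 H4K20me3 reads. With REST and H4K20me3, the highest fold, 33.2, was reached by both chromosome 4 at 112476501–112478000 and chromosome 19 at 32551501–32553000, which are inverted copies with 14 Ring1b reads each and H4K20me3 higher at 31 and 29 reads.

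MCAF1 was the only other call at 33 regions, where Ring1b folds had a median of 22.1 and MCAF1 folds one of 14.4. Chromosome 3 at 5843001–5844500 stood highest with 37 Ring1b, 8 REST, 14 MCAF1 and 5 H4K20me3 reads (68.5-fold Ring1b). Flanks of 3 or more were found at 2 of 33. Single-location Ring1b reads were called at 5 of the 33.

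The highest folds in the whole set belonged to sequence that was enriched in every library. All of the 20 Ring1b regions with the highest fold were called in the other 3 libraries, and in the 10 highest the Ring1b count was 1.38 to 3.13 times the scaled count of the others. The highest, chromosome 6 at 3150001–3152500, held 511 Ring1b, 288 REST, 461 MCAF1 and 294 H4K20me3 reads, which gave folds of 230, 173, 119 and 94.5. Of its Ring1b reads 99.1% had their second location in chromosome 17 at 39453001–39457500, which held 589, 329, 535 and 331 reads. One more place, chromosome 16 at 18446001–18447500, shared all of its 132 Ring1b reads with the same stretch of chromosome 17, in inverted orientation. So did chromosome 1 at 56726001–56727500 for 99.5% of its reads, with 188 Ring1b, 119 REST, 214 MCAF1 and 140 H4K20me3 reads in its highest window. In all, linked copies joined 8 Ring1b regions around this stretch. The Ring1b flanks of the chromosome 17 region lay at 87.0 times the mean, with REST at 67.5, while those of the chromosome 6 region held 0 Ring1b reads, which allows up to 0.633 times. The calls on chromosomes 1, 6 and 16 thus rested on reads nearly all of which also stood on chromosome 17, and from which place they came was not tested.

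Other strong regions of this kind had many reads in every library. Chromosome 14 at 39186501–39188500 held 171 Ring1b, 156 REST, 212 MCAF1 and 175 H4K20me3 reads, with folds of 222, 187, 174 and 172. Chromosome 9 at 35054001–35056000 held 148, 128, 220 and 154. On chromosome 2 at 98462501–98469000 a region of 6500 bp held 387, 371, 577 and 376 in its highest window, with folds of 112, 107, 116 and 112. The widest region, 10000 bp on chromosome 9 at 3023001–3033000, reached 18.9-fold and lay within the first 200 kb of sequence after the gap at the chromosome start. Over all chromosomes the first 200 kb of sequence held 30 Ring1b regions, 10 of them on chromosome 9, and 24 of the 30 were called in all 4 libraries. The pooled flanks of the 30 were similar in all libraries, at 8.17 times the mean for Ring1b, 9.04 for REST, 9.03 for MCAF1 and 10.4 for H4K20me3. Over the 270 regions with all 4 calls the Ring1b flanks had a median of 0.686, and the pooled 2.30 times fell to 1.09 without the 10 regions with most flanking reads.

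At 15 Ring1b regions the second copy was the mitochondrial genome itself. These are stretches of nuclear chromosome whose reads matched mitochondrial positions in spacing and strand for at least 75% of reads, 7 of them in inverted orientation. The largest, chromosome 1 at 24565001–24571000, held 1741 Ring1b, 1012 REST, 1303 MCAF1 and 185 H4K20me3 reads. Chromosome 2 at 22439501–22443000 held 803, 448, 621 and 88 and matched mitochondrial positions with 99.6% of its Ring1b reads, and chromosome 4 at 79473501–79477000 held 726, 373, 452 and 54. The 15 regions held 4029 Ring1b reads, 11.0% of those in all 943 regions.

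In these regions Ring1b had the highest median fold and H4K20me3 the lowest. Median folds were 108 for Ring1b, 77.5 for REST, 37.3 for MCAF1 and 14.2 for H4K20me3, and 14 of the 15 were called in REST, 12 in MCAF1 and 7 in H4K20me3. They held 1.08% of the distinct nuclear Ring1b entries with 2 locations, 0.515% of the REST, 0.405% of the MCAF1 and 0.0756% of the H4K20me3 entries. Single-location reads on the mitochondrial genome, which lie outside all of these regions, stood in the same order, at 0.159% of the single-location reads in Ring1b, 0.0888% in REST, 0.0360% in MCAF1 and 0.00584% in H4K20me3. Single-location Ring1b reads were called at 0 of the 15, and their flanks had a median of 0.641 times the mean (0 to 6.38). The share of mitochondrial DNA in each library and occupancy of the nuclear copy cannot be told apart from these reads.

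**Figure D4:**
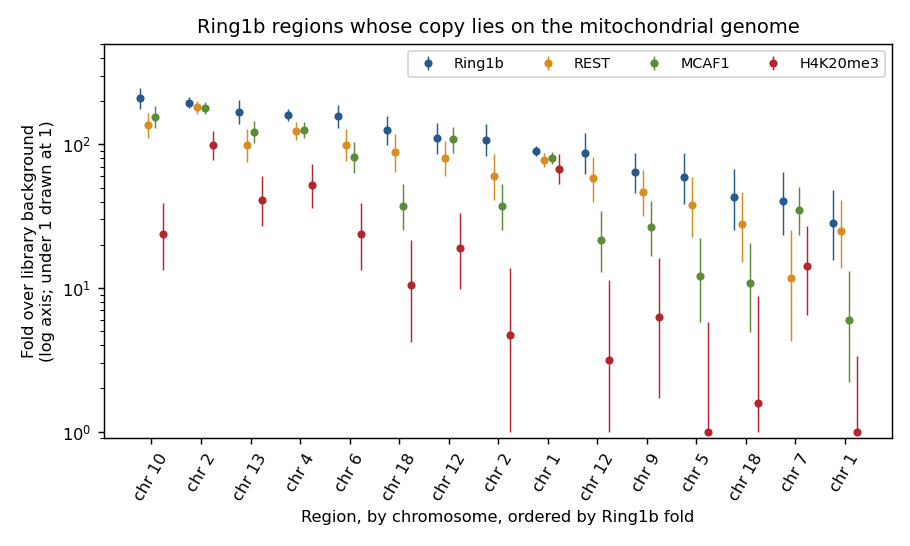
Fold over background (log axis) of each library, with its exact Poisson interval, in the 15 Ring1b regions whose second copy lies on the mitochondrial genome, ordered by Ring1b fold. Ring1b lies between 28.6 and 208.98 and is the highest of the 4 at every region, and H4K20me3 is the lowest at all but 1.

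The second copy could be located for 552 of the 943 Ring1b regions (58.5%). Because each read was listed at both places without a link between them, a copy was found as a place where runs of at least 4 reads recurred with the same spacing, and it had to take at least 50% of the region's Ring1b reads. Of the 552, 312 had their copy on the same chromosome, 219 on another chromosome, 6 within the region and 15 on the mitochondrial genome, and 293 copies were inverted against 259 in the same orientation. The offset found from Ring1b reads held for the other libraries. Among located copies with at least 10 reads of a library, at least 50% of its reads matched at 192 of 229 for REST, 327 of 397 for MCAF1 and 348 of 405 for H4K20me3. For the remaining 391 regions no place found from such runs took enough of the reads. A region with few reads may give no such run, so a copy that was not located does not show that the reads were spread over several places.

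Copies of the same sequence were mostly called alike, as shared reads require. There were 216 pairs in which each Ring1b region was the copy of the other, 139 on the same chromosome with a median distance of 54.2 kb (2.206 to 45096 kb) and 77 on different chromosomes. The same set of other libraries was called at both copies in 180 of the 216. With linked copies counted once, the 943 regions came to 663 separate sequences, of which 194 had no other call and 190 had all 3. Copies of regions without another call lay more on other chromosomes, 87 of 134 located, than those of regions with MCAF1 and H4K20me3, 54 of 170, but regions of a cluster are not independent and no test of this was made.

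The surroundings of a pair, unlike its shared reads, could differ between the copies. Of 204 pairs with a measurable flank at both copies, 26 had Ring1b flanks of 3 or more at both, 27 at only one and 151 at neither. Pairs on different chromosomes accounted for 19 of the 26 and 18 of the 27, although they were 77 of the 204. They also differed in their calls. Neither copy had another call in 29 of the 77, against 11 of 95 pairs on the same chromosome at least 20 kb apart and 3 of 32 closer ones. The part of each in the difference was not tested. In 57 pairs the intervals of both flanks did not overlap, 43 of them on different chromosomes. Among 95 pairs on the same chromosome at least 20 kb apart, 3 had such flanks at both copies and 6 at only one.

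**Figure D5:**
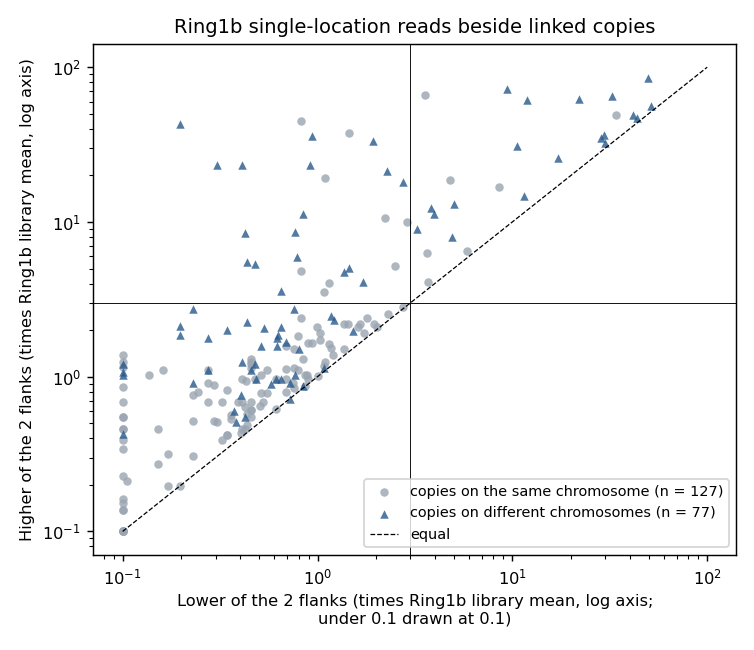
Density of single-location Ring1b reads beside the denser copy (vertical) against that beside the sparser copy (horizontal), each in multiples of the library mean on log axes with lines at 3, for 204 pairs of Ring1b regions that are copies of each other. Points in the upper right are the 26 pairs with 3 or more at both copies, and those in the upper left are the 27 pairs with such a density at only one copy.

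Some pairs carried a call at both copies and dense single-location Ring1b reads at only one. Chromosome 2 at 18601001–18603000 held 31 Ring1b reads and its inverted copy on the X chromosome at 145562501–145564000 held 35, while their flanks lay at 42.7 times the mean (39.3 to 46.3) and 0.196 times (0.0237 to 0.708). Within these regions themselves 18 single-location Ring1b reads fell on chromosome 2 and 0 on the X chromosome. Chromosome 10 at 119878001–119880000 and chromosome 1 at 178671501–178673500 held 45 and 52 Ring1b reads, with flanks at 23.3 times (20.9 to 25.9) and 0.915 times (0.473 to 1.60) and with 313 and 5 single-location Ring1b reads. On chromosome 8 the copies at 94693501–94695000 and 95434501–95435500 had flanks at 45.0 and 0.824 times and 262 and 1 single-location reads. These pairs were selected for the gap between their flanks, so its size is a description. Of the Ring1b reads at the copy with the sparse surrounding, 71.4% on the X chromosome, 76.4% on chromosome 1 and 100% on chromosome 8 were matched at the copy with the dense one.

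Ring1b regions were unevenly spread over the chromosomes. Per 10000 windows in which a region could be called, chromosome 17 held 11.7 regions (9.34 to 14.5, 85 regions), chromosome 11 held 7.77 and chromosome 9 held 6.70, against 2.09 on chromosome 15 (1.14 to 3.51, 14 regions). The Y chromosome stood at 35.4 (16.2 to 67.1) from only 9 regions, and the X chromosome at 5.39. These intervals treat regions as separate, while copies on one chromosome share their reads.

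With the pooled reads of the other 3 libraries as a further background, 204 of the 943 Ring1b regions remained (21.6%). They were 159 of the 273 without another call (58.2%), 15 of 69 with H4K20me3, 11 of 246 with MCAF1 and H4K20me3 and 6 of 270 with all 4 libraries, an order largely fixed by how the groups were formed. Of the 204, 160 (78.4%) overlapped a single-location Ring1b region, which took no part in that choice. The longer seed of MCAF1 and H4K20me3 also entered the further background, and what it contributed was not tested. Among regions chosen after their values were seen, chromosome 4 at 22577001–22579000 had 30 Ring1b reads against 0 REST, 0 MCAF1 and 2 H4K20me3 reads, 228 single-location Ring1b reads and flanks at 45.6 times the mean. Chromosome 4 at 139101501–139103000 and its copy on chromosome 1 at 78078001–78079000 had 12 and 10 Ring1b reads and flanks at 84.8 and 49.5 times. Dense flanks did not go with every such region: chromosome 7 at 80426001–80427000, with 10 Ring1b reads and 1 REST read, had flanks at 1.72 times, and the chromosome 8 copy at 95434501–95435500, with 10 Ring1b reads and 1 H4K20me3 read, at 0.824 times.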

How the data were processed

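The deposited files, per the file headers, list the leftmost mapped position and strand of each read that the authors aligned with Bowtie to the mm8 mouse assembly, in separate sections for reads with 1 and with 2 reported locations, with seeds of 26 or 36 bases that allowed 2 mismatches, and qualities at mismatches summing to at most 70. Each deposited value is a genome position with its strand, not a normalized level. Reads with 2 locations stand at both. From them 1 entry was kept per position and strand, shifted by 75 bp towards the 3' end and counted in 1000-bp windows every 500 bp. The shift was counted from the leftmost base on both strands. An alternative added later, which counted it from the 5' base of minus-strand reads, gave 946 Ring1b regions. Background was the mean over windows with any 2-location read, for the genome or within 1 Mb, whichever was larger, and the mitochondrial genome was left out of the calls. Copies were found as described, and intervals are exact at 95%. Positions of minus-strand reads in inverted copies differed by 10 bases between seed lengths at 172 of 183 MCAF1 and 184 of 189 H4K20me3 copies, and the deposited positions were therefore read as leftmost bases. Named regions are the 10 with the highest fold, the 3 widest, the 3 highest in each group of calls, the 3 with the densest flanks and those nearest the threshold; all others were chosen after their values were seen. The regions, groups and measures were chosen with earlier results of these data known. Computation ran in Python 3.11.15 with scipy 1.17.1 and numpy 2.4.6, and figures were drawn in matplotlib 3.10.9. The procedure was also run on simulated reads with an evenly spread background and planted exact copies. That setting cannot show its error rate in the uneven background of the data. Gene annotation and sequence of the mm8 assembly were not used here, so regions are given by position only.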

Additional observations from a re-analysis of the deposited data

Results flagged for a closer look

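The mitochondrial genome was left out of the region calls, and it held 4378 distinct Ring1b entries with 2 locations. REST had 2467 such entries, MCAF1 3023 and H4K20me3 427. No control library was used, so these numbers were set only against the limit that a count of 0 allows, and exceeding it shows only that such reads were present. As a share of all distinct entries with 2 locations they were 1.16% in Ring1b, 0.549% in REST, 0.409% in MCAF1 and 0.0761% in H4K20me3. Many of them are the second places of reads already described in the nuclear regions with a mitochondrial copy, since each read stands at both places. Those regions held 4029 Ring1b, 2299 REST, 2981 MCAF1 and 424 H4K20me3 entries. Most of their Ring1b reads matched mitochondrial positions, but the number of entries shared by both places was not counted.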

How the results depend on the processing

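Of 68 alternative values, 14 moved, a count by more than 1.5 times and a density or share beyond its counting interval, and 54 did not. Within that bound the number of regions still ranged from 658 at a threshold of 1e-12 to 1301 with background over windows with any read. The number of Ring1b regions was 1419 at a probability threshold of 1e-06, when 901 were called in H4K20me3 and 409 in all 3 others. It was 462 with each read counted as 0.5 at each location and 204 with the other libraries also as background. Regions called in no other library were 181 at 1e-12. With all libraries thinned to 377950 entries, 378 Ring1b regions were called in MCAF1. Flank density over all regions was 10.1 times the mean within 2 kb, 3.86 within 20 kb, 7.73 with all reported reads and 7.49 without regions of mitochondrial copies and chromosome starts, against 7.39. A single-location Ring1b region lay within 5 kb of 37.4% of regions. Copies were located for 47.7% with runs of 6 reads and for 30.9% when at least 80% of reads had to match. The last of these, the regions without mitochondrial copies and chromosome starts and the call against the other libraries were chosen after seeing the data, as was the 75% needed for a mitochondrial copy. Leaving out a replicate was not possible, since each antibody has 1 library. No paired analysis was possible because the groups share only 1 replicate number and hold 1 library each. Depth sets the limit of what a missing call can say: an average window short of 9 to 12 reads was not called in the library concerned, and more were needed where the local background was higher.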
